A study of Mus musculus with 12 samples.

Results

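Antiviral interferon-stimulated genes are the genes that a cell switches on when it senses an interferon or a viral nucleic acid, and 43 of them were followed here by name among the 46731 genes of the RNA-seq table. The list names genes by their known antiviral roles, with no threshold on a measured value, and all 43 have a row in the table. Levels are FPKM, fragments scaled to the length of the gene and to the depth of the library. A gene was tested where 3 or more of the 12 libraries held it at 1 FPKM or higher, which was so for 32 of the 43 members and for 12368 genes in all. The cells were ATDC5, a mouse teratocarcinoma-derived line used as a model of chondrocytes. They carried an integrated lentiviral cassette for puromycin selection, either with a hairpin against *Ddx5* (shRNA-*Ddx5*) or with no targeting hairpin (shRNA-NC), so the controls, whose genotype label is wildtype, had also received the vector and the drug. Each line was kept for 6 h either in medium alone or with both cytokines, IL-1β at 5 ng/ml plus TNF-α at 25 ng/ml, which gave 4 groups of 3 libraries (medium and cytokines below). The study describes the 3 replicates as independent experiments. There was a single knockdown line and a single control line, and whether they were pools or clones is not given in the sources used here.

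In the classical route, RNA in the cytosol is sensed by RIG-I and MDA5, the kinase TBK1 activates IRF3 and IRF7, and the cell secretes type I interferons. These bind the receptor IFNAR, whose kinases JAK1 and TYK2 phosphorylate STAT proteins. With IRF9 these form the complex ISGF3, which binds the interferon-stimulated response element (ISRE) in the promoters of antiviral genes. IRF1, which NF-κB can switch on, can bind the same element. DDX5 is a DEAD-box RNA helicase.

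Some members carry the element close to the start of the gene, and the stretches below show it for genes whose values follow. Sequences are those of RefSeq on GRCm38.p6, read 5′ to 3′ on the strand of the gene and ending before the annotated start. The capitals mark 1 match to the letters GAAANNGAAA, which stand for the ISRE, or to their reverse complement. A window of 300 bases, 250 before and 50 after the start, was held for 33 of the 43 members.
Isg15: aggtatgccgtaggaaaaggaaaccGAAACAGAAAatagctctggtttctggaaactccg
Ifit1: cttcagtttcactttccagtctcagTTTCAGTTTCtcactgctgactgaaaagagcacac
Ifit3: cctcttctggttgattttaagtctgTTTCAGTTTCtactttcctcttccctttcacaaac
Ifit3b: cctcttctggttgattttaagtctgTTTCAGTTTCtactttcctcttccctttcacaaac
Oas3: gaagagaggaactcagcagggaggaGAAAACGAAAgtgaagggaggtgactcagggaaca
Bst2: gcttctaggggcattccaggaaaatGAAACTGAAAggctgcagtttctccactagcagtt
Ddx60: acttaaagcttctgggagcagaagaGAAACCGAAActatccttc
*Isg15* is on the minus strand of chromosome 4, where its stretch spans 156200850 to 156200909 with 56 bases between the match and the start. Its window held 3 matches, each overlapping the next, and the capitals mark the one nearest to the start. The stretches of *Ifit1* (chromosome 19 from 34640779 to 34640838), *Ifit3* (chromosome 19 from 34583382 to 34583441) and *Ifit3b* (chromosome 19 from 34607778 to 34607837) are on the plus strand and hold the reverse complement. *Ifit3* and *Ifit3b* share all 60 bases shown. Those of *Oas3* (chromosome 5 from 120777700 to 120777759) and *Bst2* (chromosome 8 from 71537562 to 71537621) were read from the minus strand, and that of *Ddx60* (chromosome 8 from 61928043 to 61928086) is on the plus strand with 9 bases to the start. In *Bst2* 114 bases lie between the match and the start. A match was found in 3.44% of the 32851 promoter windows in the RefSeq table. No window was held for *Dhx58*, *Zbp1*, *Oas1b*, *Oas2*, *Mx1*, *Mx2*, *Usp18*, *Parp9*, *Parp14* and *Ifi27*, and with 10 of 43 members missing a share over the list is void. Some members with a window held no match, *Ifit2* among them. A match describes the letters and is not a measured binding site.

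The libraries held between 14119199 and 19276520 fragments on genes. Every deposited FPKM was a whole number of fragments, within a tolerance of 0.01 fragments. *Ddx5* fell in the knockdown line. In medium it was at 319 ± 22.3 FPKM in shRNA-NC and 103 ± 13.9 FPKM in shRNA-*Ddx5*, and with cytokines at 310 ± 14.9 and 99.5 ± 5.27 FPKM (SD, n = 3). Library correlations of log2 values were 0.973 to 0.993 within groups and 0.897 to 0.961 between groups. Of the 8 chondrogenic genes listed, *Sox9* and *Col2a1*, the cartilage collagen, were among the 3 above the filter, while *Acan*, the aggrecan gene, had at most 0.0325 FPKM in any library. *Col2a1* itself was at 12.4 FPKM in shRNA-NC medium and 0.899 FPKM in shRNA-*Ddx5* medium on average. The markers *Ptprc*, *Cd3e* and *Siglech* of white blood cells had no fragment in any library. The 9 leukocyte genes summed to 3.84 to 4.14 FPKM in shRNA-NC medium, 5.08 to 6.51 in shRNA-*Ddx5* medium, 6.38 to 8.48 in shRNA-NC with cytokines and 10.2 to 10.5 in shRNA-*Ddx5* with cytokines, most of it from *Cd14*. *Lyz2*, a lysozyme gene of myeloid cells, was 0.0518 ± 0.00966 FPKM in shRNA-NC medium and 0.934 ± 0.243 FPKM in shRNA-*Ddx5* medium (SD, n = 3). The part of these marker differences in the results below was not tested. In bulk RNA, more cells with a transcript and more transcript per cell cannot be told apart.

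Summed over the 43 members, expression was lowest in shRNA-NC medium and highest in shRNA-*Ddx5* cells with cytokines. The sums were 222 to 238 FPKM in shRNA-NC medium, 346 to 385 FPKM in shRNA-*Ddx5* medium, 447 to 623 FPKM in shRNA-NC with cytokines and 1326 to 1480 FPKM in shRNA-*Ddx5* with cytokines. The 4 ranges do not overlap. A large share of each sum came from *Ifitm3*, a membrane protein that blocks virus entry. Without it the sums were 163 to 169, 200 to 209, 285 to 355 and 609 to 663 FPKM in the same order. Replicate 1 of shRNA-NC with cytokines was the lowest of its group for 26 of the 32 tested members. Leaving it out ended calls that are named below, and brought 3 others past the threshold: *Mx2* between the lines in medium (0.24, adjusted p = 0.049, limma), *Dhx58* for the cytokines in shRNA-NC (0.61, adjusted p = 0.0069, limma) and the interaction of *Adar* (0.34, adjusted p = 0.0489, limma).

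**Figure D1:**
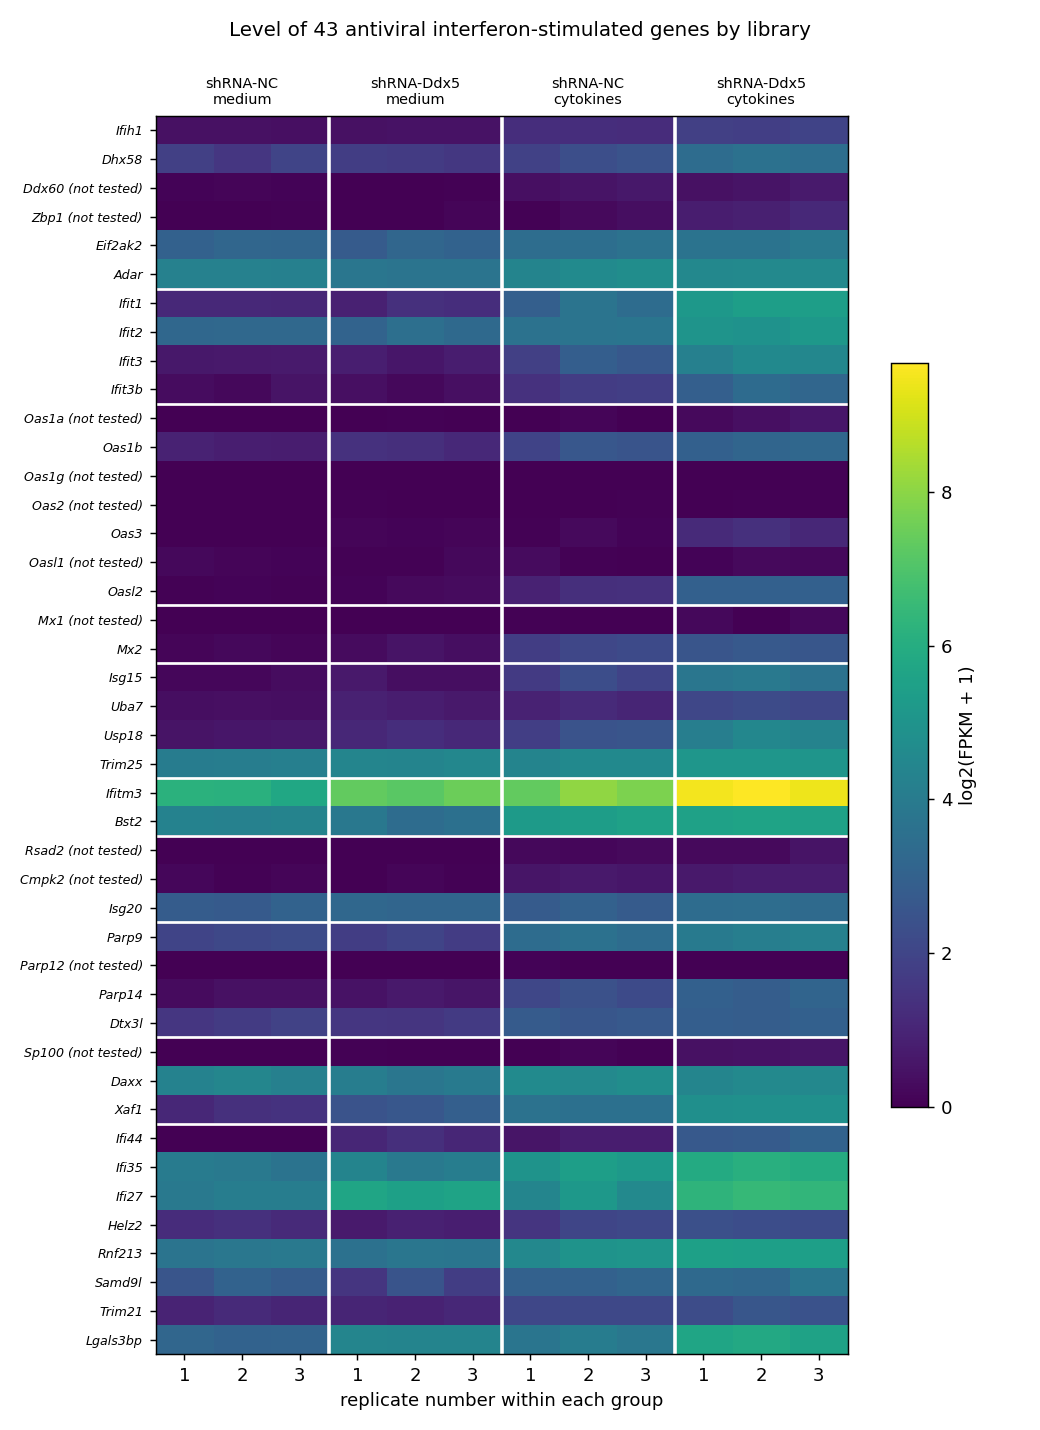
Level of each of the 43 members (rows, grouped by role) in each of the 12 libraries (columns, by group and replicate number), coloured by log2(FPKM + 1). The IFIT rows, the tested OAS rows and the *Isg15* row are brightest in the 3 libraries of shRNA-Ddx5 with cytokines, *Ifitm3* is the brightest row throughout, and the 11 rows marked as not tested stay dark.

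The first comparison set shRNA-*Ddx5* cells against shRNA-NC cells in medium alone. With a single line of each kind, an effect of *Ddx5* and another difference between the lines cannot be told apart, here and below. The members moved in both directions: 10 of 32 rose, 5 fell and 17 did not pass the test (limma on log2(FPKM + 1), Benjamini-Hochberg adjusted p under 0.05 over the 12368 genes). Of all genes tested 25.3% were called higher and 21.7% lower. Scaled to the sum of fragments instead, 7 members rose and 6 fell. The median difference of the members was 0.09 on the log2 scale and that of all genes tested was 0.03. Among the 17 members at 1 FPKM or more in each of the 6 libraries, 6 rose and 4 fell and the median was -0.11.

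The members with the largest rises in medium were *Ifi27*, *Xaf1*, *Ifitm3*, *Lgals3bp* and *Ifi44*. *Ifi27* encodes a small mitochondrial protein that interferon induces (chromosome 12 from 103400448 to 103406504 on GRCm39, the build of the deposited coordinates), and its FPKM was 14.2, 16.2 and 16.2 in shRNA-NC and 50.6, 44.1 and 48.0 in shRNA-*Ddx5*. All knockdown libraries lay above all control libraries, a 3.06-fold difference of the means, with a log2 difference of 1.55 ± 0.16 (SE, adjusted p = 2.1e-05, limma). *Xaf1*, which binds the apoptosis inhibitor XIAP (chromosome 11 from 72192229 to 72204560), read 1.13, 1.56 and 1.69 FPKM in shRNA-NC and 4.58, 5.11 and 6.62 FPKM in shRNA-*Ddx5*. Its groups were apart as well, with a log2 difference of 1.38 ± 0.12 (SE, adjusted p = 6.9e-06, limma).

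*Ifitm3* (chromosome 7 from 140589503 to 140590657) read 70.9, 68.9 and 52.7 FPKM in shRNA-NC and 160, 146 and 181 FPKM in shRNA-*Ddx5*, a difference of 1.33 ± 0.17 on the log2 scale (SE, adjusted p = 1.1e-04, limma). *Lgals3bp*, a secreted glycoprotein that binds galectins, read 8.15, 7.16 and 7.35 FPKM against 19.9, 19.8 and 19.4 FPKM, a difference of 1.28 ± 0.10 (SE, adjusted p = 2.9e-06, limma). In both genes the groups were apart by far more than the spread within them. *Ifi44*, a cytosolic protein with a GTPase fold, was at or under 1 fragment in every shRNA-NC medium library and at 1.05, 1.47 and 1.07 FPKM (50, 77 and 56 fragments) in shRNA-*Ddx5*. Its log2(FPKM + 1) difference was 1.11 ± 0.12 (SE, adjusted p = 2.9e-05, limma), and no ratio is given against a control at the counting floor of 3 fragments per library. *Ifi44* was under 1 FPKM in every shRNA-NC library. It passed the filter only through the knockdown line, so its higher level there, counted among the 10 rises, was built in.

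The other rises in medium were smaller, from 0.31 to 0.59 on the log2 scale. They were *Usp18*, which removes ISG15 from proteins and restrains IFNAR signalling, *Uba7*, the activating enzyme of ISG15, *Trim25*, a ubiquitin ligase for RIG-I, *Oas1b*, a 2′-5′ oligoadenylate synthetase homolog, and *Isg20*, an exonuclease. *Usp18* was at 0.488 ± 0.0452 FPKM in shRNA-NC and 1.24 ± 0.145 FPKM in shRNA-*Ddx5* (SD, n = 3). The call of *Oas1b* was lost without any 1 of 9 libraries (all but shRNA-*Ddx5* medium replicate 3 and shRNA-NC cytokines replicates 1 and 2), with log2 differences from 0.37 to 0.50 over the fits that leave out 1 library, and it was also lost without the filter (adjusted p = 0.0996, limma). That of *Isg20* was lost without shRNA-NC medium replicate 1, shRNA-NC medium replicate 2 or shRNA-*Ddx5* medium replicate 1, with differences from 0.26 to 0.39. Scaled to the sum of fragments, *Oas1b*, *Trim25* (adjusted p = 0.0577, limma) and *Isg20* (adjusted p = 0.0789, limma) missed the threshold.

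The 5 members that fell in medium were *Samd9l*, a translation inhibitor that restricts poxviruses, *Bst2* (tetherin), which holds budding virions at the cell surface, *Adar*, the RNA-editing enzyme, *Helz2*, a helicase coactivator, and *Daxx*, a nuclear histone chaperone. *Samd9l* read 4.83, 7.14 and 6.02 FPKM in shRNA-NC and 1.79, 4.70 and 2.41 FPKM in shRNA-*Ddx5*. The groups were apart by a narrow gap, with a log2 difference of -0.87 ± 0.23 (SE, adjusted p = 0.01, limma). *Bst2* (chromosome 8 from 71986899 to 71990116 on GRCm39) read 18.8, 17.9 and 19.2 FPKM against 13.8, 9.73 and 11 FPKM, a difference of -0.66 ± 0.11 (SE, adjusted p = 5.8e-04, limma). *Adar* fell to 69.5% of the control, from 17.9 ± 0.234 to 12.4 ± 0.488 FPKM, and *Daxx* to 76.5%, from 18.9 ± 1.55 to 14.5 ± 1.72 FPKM (SD, n = 3). The fall of *Helz2*, by 0.45, was lost without shRNA-NC medium replicates 1 or 2 or shRNA-*Ddx5* medium replicates 1 or 3, with differences from -0.49 to -0.395, and with no filter (adjusted p = 0.0599, limma).

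None of the 4 IFIT genes passed the test in medium, and their log2 differences were -0.01 to 0.08. Of their proteins, IFIT1 binds viral RNA that lacks the cap methylation of host messengers. Of the 3 tested OAS genes *Oas1b* rose, as given above, while *Oas3* (0.10) and *Oasl2* (0.14) did not pass. *Ifit2* was the most abundant, with 8.31, 8.55 and 8.58 FPKM in shRNA-NC and 7.43, 10.7 and 8.92 FPKM in shRNA-*Ddx5*, and these groups overlap. *Isg15*, the ubiquitin-like modifier (chromosome 4 from 156283881 to 156285275 on GRCm39), rested on 2, 2 and 3 fragments in shRNA-NC and on 7, 4 and 4 fragments in shRNA-*Ddx5*. Its log2 difference of 0.23 did not pass the test (adjusted p = 0.23, limma), whereas with a pseudocount of 0.1 in place of 1 it did (adjusted p = 0.0334, limma), as did those of *Oasl2*, *Mx2* and, downward, *Parp9*.

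With cytokines the picture differed, as 26 of the 32 tested members were higher in shRNA-*Ddx5* than in shRNA-NC cells and none was lower, with 6 short of the threshold. Of all genes tested 23.5% were called higher and 22.1% lower. The median difference of the members was 0.77 on the log2 scale and that of all genes tested was 0.01. Of the 28 members at 1 FPKM or more in all 6 libraries of this comparison 22 rose, with a median of 0.69. All 4 tested members of the ISG15 pathway, all 4 IFIT genes and all 3 tested OAS genes rose. Of these, *Oas3* reached the filter only through the 3 libraries of shRNA-*Ddx5* with cytokines, so that it had to be higher there, and without it 25 of 31 members rose. *Oasl2* and *Uba7* reached 1 FPKM in 5 libraries, all with cytokines. They would have missed the filter without those of shRNA-*Ddx5*, so their higher level there was partly built in. *Ifi44*, also among the 26, passed the filter only through shRNA-*Ddx5* libraries, so its higher level in that line was built in as well. The 25 still hold *Oasl2*, *Uba7* and *Ifi44*. The 28 members above, of which 22 rose, hold none of *Oas3*, *Oasl2*, *Uba7* and *Ifi44*.

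**Figure D2:**
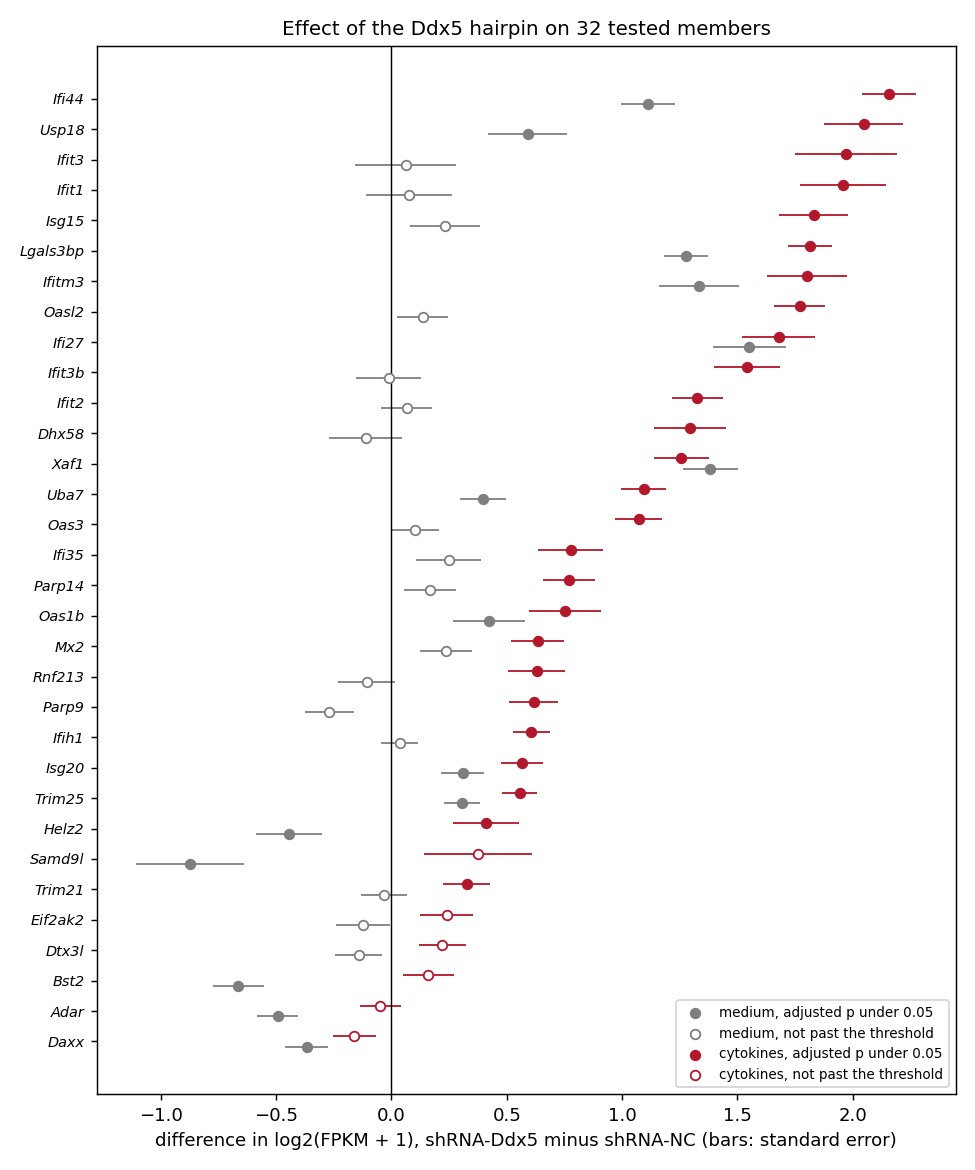
Difference in log2(FPKM + 1) between shRNA-Ddx5 and shRNA-NC (horizontal axis, points, with standard errors as bars) for each of the 32 tested members in medium (grey) and with cytokines (red); filled points passed the adjusted p threshold of 0.05. The red points run from -0.16 for *Daxx* to 2.16 for *Ifi44*, with 26 filled on the right, while the grey points lie on both sides of 0.

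The ISG15 pathway gave some of the clearest separations between the lines with cytokines. *Isg15* read 2.14, 3.88 and 2.82 FPKM in shRNA-NC and 12.9, 14.1 and 11.6 FPKM in shRNA-*Ddx5*, 4.36-fold more on average, with a log2 difference of 1.83 ± 0.15 (SE, adjusted p = 4.9e-06, limma). *Usp18* (chromosome 6 from 121222865 to 121247876) read 2.47, 4.55 and 4.87 FPKM against 16.7, 21.5 and 19.0 FPKM, a difference of 2.05 ± 0.17 (SE, adjusted p = 5.7e-06, limma). For both genes the lowest knockdown library lay well above the highest control library. *Uba7* was at 1.04 ± 0.163 and 3.36 ± 0.280 FPKM and *Trim25* at 22 ± 2.03 and 32.7 ± 0.321 FPKM (SD, n = 3) in shRNA-NC and shRNA-*Ddx5* cells.

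The 4 IFIT genes stand next to each other on the plus strand of chromosome 19 (*Ifit2*, *Ifit3*, *Ifit3b* and *Ifit1* in this order, from 34527961 to 34627409 on GRCm39), and all were higher in the knockdown line with cytokines. *Ifit1* read 6.56, 12.3 and 9.84 FPKM in shRNA-NC and 34.6, 41.5 and 41.4 FPKM in shRNA-*Ddx5*, a 4.09-fold difference with a log2 difference of 1.96 ± 0.19 (SE, adjusted p = 1.2e-05, limma). *Ifit3* read 2.53, 6.46 and 5.33 FPKM against 17.6, 22.9 and 21.6 FPKM, a difference of 1.97 ± 0.22 (SE, adjusted p = 3.7e-05, limma). In these 2 genes replicate 1 was the lowest library of both groups, and without any single library the log2 differences were 1.74 to 2.15 for *Ifit1* and 1.65 to 2.19 for *Ifit3*. *Ifit3b* rose from 2.11 ± 0.445 to 8.07 ± 1.36 FPKM and *Ifit2* from 12.1 ± 0.613 to 31.9 ± 2.91 FPKM (SD, n = 3). *Ifit3* and *Ifit3b* share sequence: 9.16% of the 150-base windows of the *Ifit3* transcripts and 15.6% of those of *Ifit3b* occur in the other gene, so their counts are not fully separate.

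The OAS enzymes make 2′-5′ oligoadenylates, which activate the ribonuclease RNase L, and their family was expressed at low levels. *Oasl2*, an OAS-like protein, read 0.917, 1.45 and 1.56 FPKM in shRNA-NC and 6.85, 6.86 and 6.74 FPKM in shRNA-*Ddx5* with cytokines, a 5.21-fold difference (log2 difference 1.77 ± 0.11, SE, adjusted p = 8.4e-07, limma). As given above, it passed the filter only with the shRNA-*Ddx5* libraries with cytokines, so this difference was partly built in. *Oas3* was detected mainly in 1 group, with 1.24, 1.55 and 1.12 FPKM in shRNA-*Ddx5* with cytokines against 0.0365, 0.195 and 0.0541 FPKM (3, 18 and 5 fragments) in shRNA-NC with cytokines. *Oas1b* was at 4.25 ± 1.19 and 7.69 ± 0.811 FPKM (SD, n = 3), a difference of 0.75. The reference strain of the mouse carries a truncated *Oas1b*, and the table counts the gene whatever its protein.

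The genes that rose most in medium also differed between the lines with cytokines. *Ifi44* was at 0.455, 0.701 and 0.699 FPKM in shRNA-NC and 5.5, 5.91 and 7.33 FPKM in shRNA-*Ddx5*, a 10.1-fold difference of the means and the largest of the 32 on the log2 scale (2.16 ± 0.12, SE, adjusted p = 3.6e-07, limma). As given above, *Ifi44* passed the filter only through the knockdown line. *Ifitm3* reached 163, 268 and 217 FPKM against 716, 817 and 691 FPKM (1.80 ± 0.17, SE, adjusted p = 1.4e-05, limma), and *Lgals3bp* 12.4, 15.8 and 13.3 FPKM against 50.9, 55.7 and 46.6 FPKM (1.81 ± 0.10, SE, adjusted p = 3.1e-07, limma). Their groups did not overlap. *Ifi27* was at 25.6 ± 7.65 and 82.0 ± 4.99 FPKM and *Xaf1* at 11.1 ± 0.420 and 27.8 ± 0.526 FPKM (SD, n = 3).

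The RNA sensors and the enzymes that modify RNA or protein come next. *Dhx58* (LGP2), a regulator of RIG-I and MDA5, read 2.63, 4.02 and 4.53 FPKM in shRNA-NC and 9.80, 11.1 and 10.3 FPKM in shRNA-*Ddx5*, and *Ifih1*, which encodes MDA5, was at 1.39 ± 0.0556 and 2.63 ± 0.205 FPKM (SD, n = 3). Both rose. *Parp9* and *Parp14*, ADP-ribosyltransferases, rose by 0.62 and 0.77 on the log2 scale, *Mx2*, a dynamin-like GTPase, by 0.63, *Rnf213*, a large ubiquitin ligase, by 0.63, and *Ifi35* by 0.78. The rises of *Trim21*, a cytosolic antibody receptor (0.33), and *Helz2* (0.41) were the weakest. That of *Trim21* was lost without shRNA-NC cytokines replicate 1 or shRNA-*Ddx5* cytokines replicates 2 or 3 (0.24 to 0.42), and that of *Helz2* without shRNA-NC cytokines replicate 1 or any of the 3 shRNA-*Ddx5* cytokines libraries (0.22 to 0.52).

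The 6 members that did not pass the test with cytokines were *Daxx*, *Adar*, *Bst2*, *Dtx3l*, *Eif2ak2* and *Samd9l*. Their log2 differences ranged from -0.16 for *Daxx* to 0.38 for *Samd9l*. *Bst2* was at 41.5 ± 4.02 FPKM in shRNA-NC and 46.3 ± 1.47 FPKM in shRNA-*Ddx5*, *Eif2ak2* (the kinase PKR) at 10.6 ± 0.900 and 12.7 ± 1.27 FPKM, and *Adar* at 23.3 ± 3.16 and 22.3 ± 0.242 FPKM (SD, n = 3). *Dtx3l*, the ubiquitin ligase partner of PARP9, overlaps *Parp9* on the opposite strand of chromosome 16, from 35758840 to 35759397 on GRCm39. Where the counting ignored strand, reads in that overlap cannot be assigned to either gene. In no library of either line with cytokines did *Samd9l* exceed 12.6 FPKM.

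**Figure D3:**
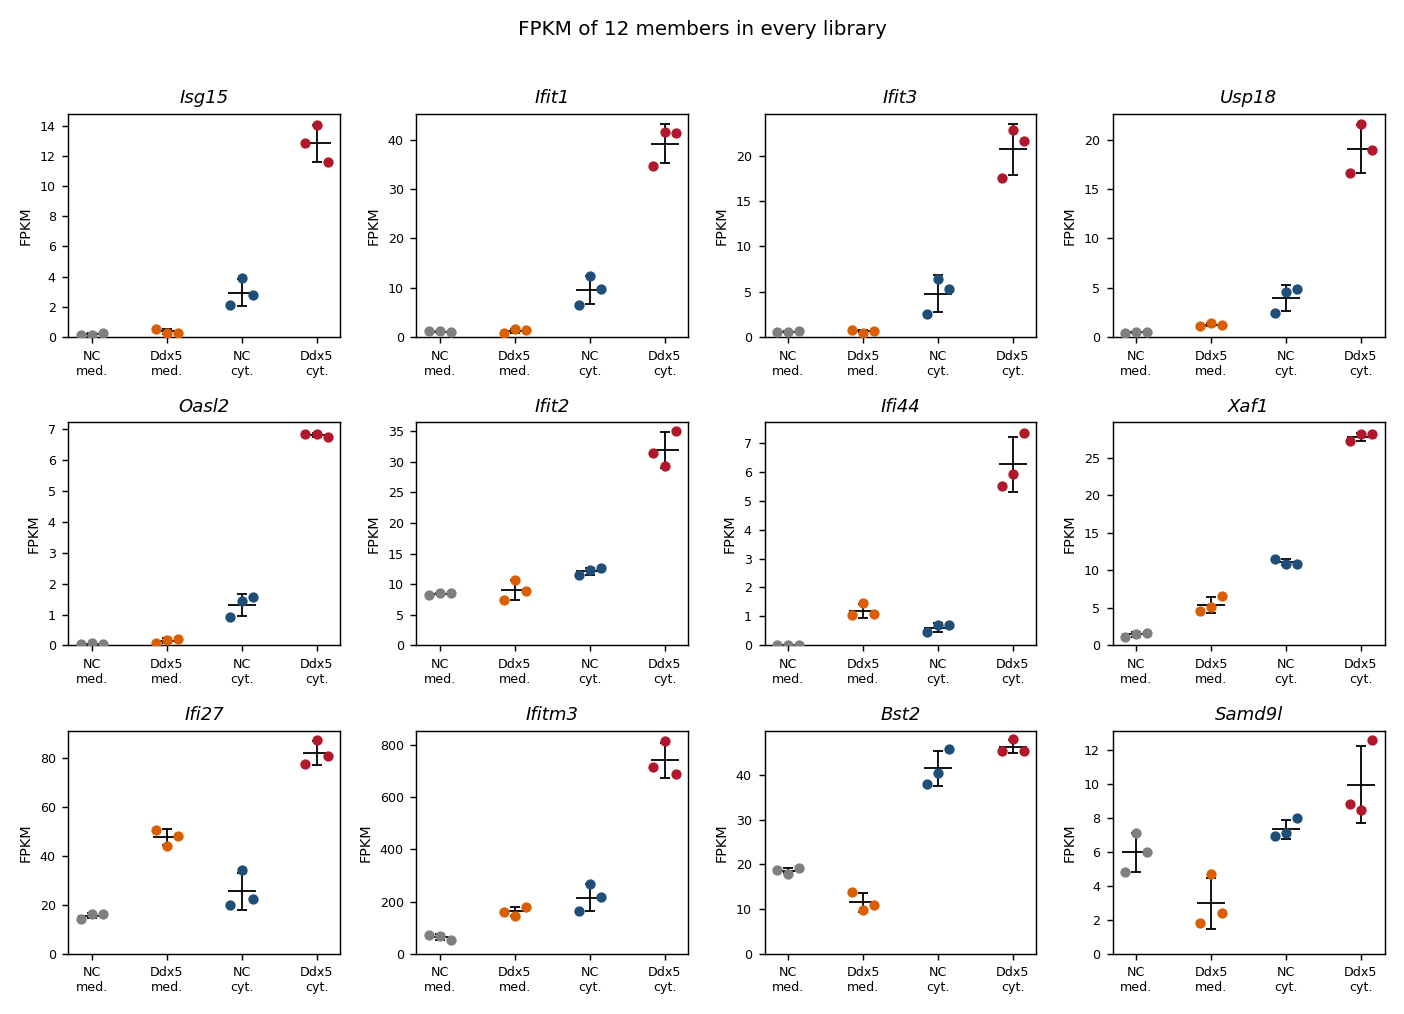
FPKM (vertical axis, linear, from 0) of 12 members in each library (points) of shRNA-NC and shRNA-Ddx5 in medium (NC med., Ddx5 med.) and with cytokines (NC cyt., Ddx5 cyt.); black bars give the mean and SD of 3 libraries. *Isg15*, *Ifit1*, *Ifit3*, *Usp18*, *Oasl2* and *Ifit2* are highest in the last group, *Ifi27* and *Ifitm3* are higher in shRNA-Ddx5 than in shRNA-NC with and without cytokines, and *Bst2* and *Samd9l* are lower in shRNA-Ddx5 medium than in shRNA-NC medium.

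The cytokines themselves raised most members in the control line. In shRNA-NC cells 28 of 32 rose, none fell and 4 did not pass the test, against 18.6% of all genes called higher and 15.2% called lower. The median of the members was 1.01 on the log2 scale and that of all genes tested was 0.02. Among the 19 members at 1 FPKM or more in all 6 libraries 16 rose, with a median of 0.65. *Ifih1*, *Ifit3*, *Ifit3b*, *Oas3*, *Oasl2*, *Mx2*, *Isg15*, *Uba7* and *Parp14* were under 1 FPKM in every medium library of both lines. They passed the filter only through libraries with cytokines, so a higher level with cytokines was built in for them. The largest differences were those of *Xaf1* (2.30 ± 0.12), *Ifit1* (2.27 ± 0.19), *Mx2* (1.83 ± 0.11), *Parp14* (1.83 ± 0.11) and *Ifit3* (1.80 ± 0.22), each with its SE.

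*Xaf1* went from 1.13, 1.56 and 1.69 FPKM in medium to 11.6, 10.8 and 10.8 FPKM with cytokines in shRNA-NC cells (adjusted p = 9.6e-08, limma). *Mx2* (chromosome 16 from 97337281 to 97362101) went from 0.1, 0.142 and 0.110 FPKM, which are 5, 7 and 4 fragments, to 2.37, 3.13 and 3.54 FPKM (adjusted p = 4.8e-07, limma). *Parp14* went from 0.211, 0.348 and 0.368 FPKM to 3.18, 4.29 and 3.55 FPKM (adjusted p = 4.5e-07, limma). In all of these the groups were far apart. *Dhx58* (0.43, adjusted p = 0.0537, limma), *Samd9l* (0.27), *Oas3* (0.12) and *Isg20* (-0.01) were the 4 that did not pass. The rise of *Eif2ak2* was lost without shRNA-NC medium replicate 1 or shRNA-NC cytokines replicate 3 (0.35 to 0.45) and that of *Daxx* without replicate 3 of either shRNA-NC group (0.28 to 0.39). The rise of *Ifi27*, 0.65, went down to 0.42 without shRNA-NC cytokines replicate 2 and stayed past the threshold.

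In the knockdown line 31 of 32 members rose with cytokines, *Isg20* being the exception (0.25, adjusted p = 0.0717, limma), and none fell. Here 13.5% of all genes tested were called higher and 13.5% lower. The median of the members was 1.74, while that of all genes tested was 0.00014. Of the 20 members at 1 FPKM or more in all 6 libraries 19 rose, with a median of 1.72. *Ifit3*, *Isg15* and *Ifit3b*, given below, are among the members that passed the filter only through libraries with cytokines. *Ifit1*, *Ifit3* and *Isg15* led. *Ifit1* went from 0.830, 1.55 and 1.41 FPKM to 34.6, 41.5 and 41.4 FPKM, 31.0-fold (log2 difference 4.16 ± 0.19, SE, adjusted p = 2.5e-08, limma). *Ifit3* went from 0.749, 0.496 and 0.704 FPKM to 17.6, 22.9 and 21.6 FPKM (3.71 ± 0.22, SE, adjusted p = 2.4e-07, limma). No library in medium came near any library with cytokines.

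*Isg15* went from 0.563, 0.293 and 0.294 FPKM to 12.9, 14.1 and 11.6 FPKM in shRNA-*Ddx5* cells, a log2 difference of 3.33 ± 0.15 (SE, adjusted p = 2.8e-08, limma). *Usp18* rose 15.3-fold, from 1.13, 1.41 and 1.19 FPKM to 16.7, 21.5 and 19.0 FPKM (3.16 ± 0.17, SE, adjusted p = 1.2e-07, limma), and *Ifit3b* from 0.300, 0.149 and 0.323 FPKM to 6.64, 9.35 and 8.22 FPKM (2.84 ± 0.14, SE, adjusted p = 6.1e-08, limma). The smallest rises past the threshold were those of *Daxx* (0.54), *Trim25* (0.66), *Ifi27* (0.77), *Eif2ak2* (0.77) and *Adar* (0.80). The comparisons in the 2 lines have no library in common, but each shares its cytokine libraries with the knockdown comparison above.

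**Figure D4:**
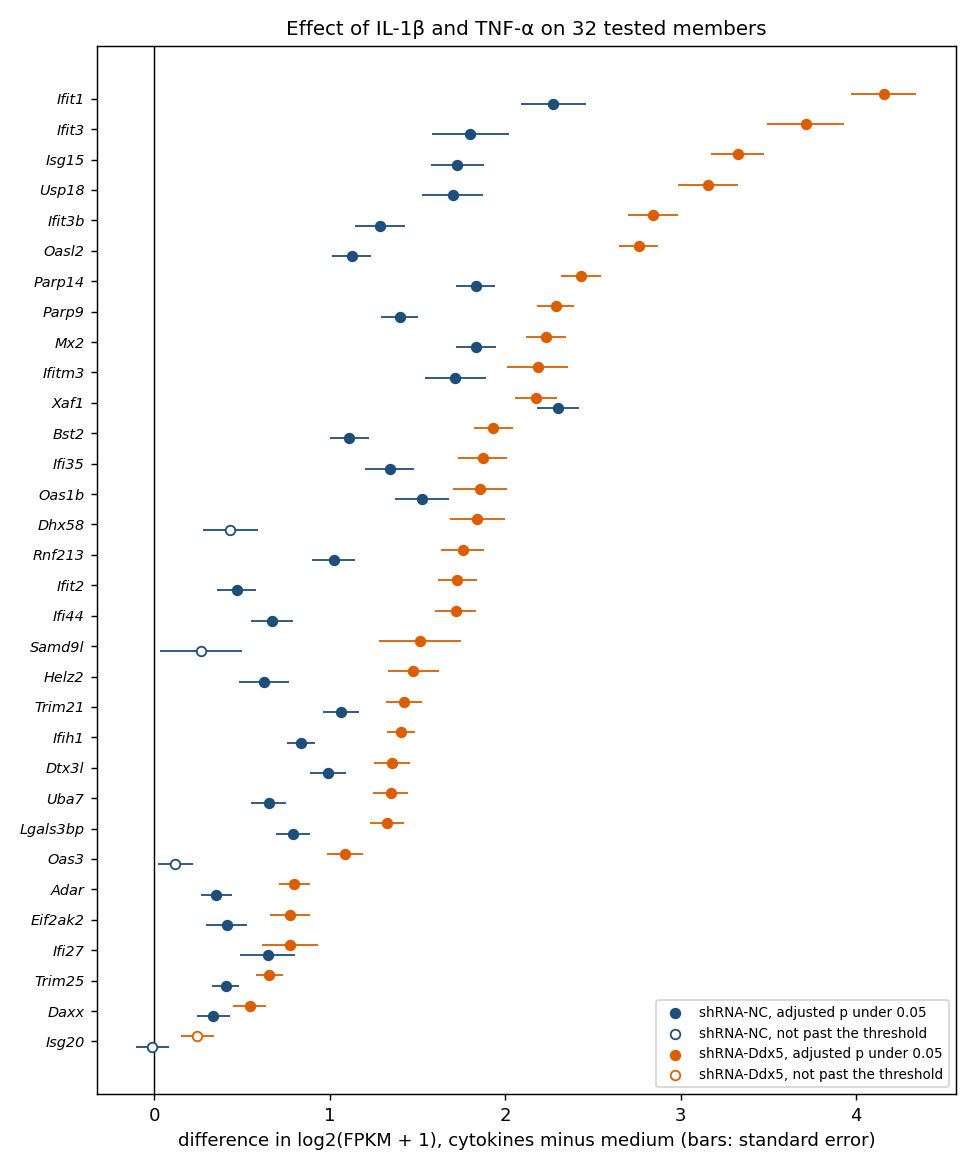
Difference in log2(FPKM + 1) between cytokines and medium (horizontal axis, points, with standard errors as bars) for each of the 32 tested members in shRNA-NC (blue) and shRNA-Ddx5 cells (orange); filled points passed the adjusted p threshold of 0.05. The orange point lies to the right of the blue point for every member except *Xaf1*, with the widest gaps for *Ifit3* (1.80 and 3.71) and *Ifit1* (2.27 and 4.16).

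Whether the difference between the lines changed with cytokines was examined by the interaction term, which is the same number as the difference between the cytokine responses of the lines. It was past the threshold for 19 of the 32 members, in each case with a positive sign, that is, with a knockdown difference further up the scale with cytokines than in medium, against 3.46% of all genes tested called in this direction and 4.75% in the other. Without *Oas3* it was 18 of 31. These still hold *Oasl2*, *Uba7* and *Ifi44*, which would have missed the filter without shRNA-*Ddx5* libraries. Of the 17 members at 1 FPKM or more in every library, 7 had a positive interaction past the threshold and none a negative one, with a median of 0.47. The median interaction was 0.65 on the log2 scale over the members and -0.01 over all genes tested. The 8 largest were those of *Ifit3* (1.91 ± 0.31), *Ifit1* (1.88 ± 0.26), *Oasl2* (1.64 ± 0.16), *Isg15* (1.6 ± 0.21), *Ifit3b* (1.55 ± 0.20), *Usp18* (1.46 ± 0.24), *Dhx58* (1.41 ± 0.22) and *Ifit2* (1.26 ± 0.16), each with its SE. *Samd9l* and *Bst2* fell in medium and did not differ past the threshold with cytokines, with interactions of 1.25 and 0.82. *Helz2* fell in medium and rose with cytokines.

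For *Ifit2* and *Dhx58*, which were above 1 FPKM in every library, the interaction can be read from the levels. *Ifit2* went from 8.31, 8.55 and 8.58 to 11.4, 12.3 and 12.6 FPKM with cytokines in shRNA-NC cells and from 7.43, 10.7 and 8.92 to 31.4, 29.3 and 35.1 FPKM in shRNA-*Ddx5* cells (adjusted p = 7.6e-04, limma). *Dhx58* went from 2.54, 1.89 and 3.01 to 2.63, 4.02 and 4.53 FPKM and from 2.40, 2.23 and 1.95 to 9.80, 11.1 and 10.3 FPKM (adjusted p = 0.0033, limma). In both genes the lines overlap in medium and are apart with cytokines. *Xaf1* (-0.13), *Ifi27* (0.13) and *Ifitm3* (0.47, adjusted p = 0.28, limma) had no interaction past the threshold, although each rose in shRNA-*Ddx5* cells in both media.

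The number of interactions depends on the scale for genes near 0 in medium. With a pseudocount of 0.1 it was 10, and with limma's voom weights on the fragments, a scale of ratios, it was also 10, of which 9 were positive and *Ifi44* negative. Of the 19 members, *Ifit1*, *Ifit2*, *Dhx58*, *Bst2*, *Parp9*, *Helz2*, *Rnf213* and *Samd9l* were past the threshold with voom in the same direction, *Ifi44* turned (-2.67, adjusted p = 0.046, limma), and 10 missed it, among them *Isg15* (1.10, adjusted p = 0.33, limma), *Oasl2* (1.01, adjusted p = 0.36, limma), *Usp18* (0.97, adjusted p = 0.25, limma) and *Ifit3* (2.04, adjusted p = 0.057, limma). Leaving out 1 library ended the call of *Parp14* (0.52 to 0.69) for all libraries but shRNA-*Ddx5* medium replicate 2 and shRNA-NC cytokines replicate 2, of *Samd9l* (1.03 to 1.54) for all but shRNA-NC medium replicate 1 and shRNA-*Ddx5* medium replicate 2, and of *Lgals3bp* (0.47 to 0.63) for all but shRNA-NC medium replicate 3, shRNA-NC cytokines replicate 2 and shRNA-*Ddx5* cytokines replicate 3. It ended that of *Helz2* (0.66 to 0.97) for shRNA-NC medium replicates 1 and 2, shRNA-*Ddx5* medium replicates 1 and 3 and each shRNA-*Ddx5* cytokines library, and that of *Rnf213* (0.58 to 0.84) for shRNA-NC medium replicate 2, shRNA-*Ddx5* medium replicates 1 and 3 and each shRNA-*Ddx5* cytokines library.

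The 11 members under the filter were *Zbp1*, *Ddx60*, *Oas1a*, *Oas1g*, *Oas2*, *Oasl1*, *Mx1*, *Rsad2*, *Cmpk2*, *Parp12* and *Sp100*. *Zbp1*, a sensor of Z-form nucleic acid, had 0, 1 and 1 fragments in shRNA-NC medium and 25, 28 and 40 fragments (0.699, 0.814 and 1.18 FPKM) in shRNA-*Ddx5* with cytokines, against 1, 8 and 12 fragments in shRNA-NC with cytokines. *Sp100*, a nuclear body protein, had no fragment in shRNA-NC medium and 28, 32 and 38 fragments in shRNA-*Ddx5* with cytokines, and 0, 8 and 3 fragments in shRNA-NC with cytokines. In both genes all knockdown libraries with cytokines lay above all control libraries with cytokines.

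*Ddx60*, *Rsad2* (viperin, which makes a chain-terminating nucleotide) and its neighbour *Cmpk2*, a nucleotide kinase, were higher with cytokines than in medium in every library of both lines, and the lines overlapped with cytokines. *Cmpk2* was at 0.470, 0.590 and 0.495 FPKM in shRNA-NC and 0.580, 0.658 and 0.683 FPKM in shRNA-*Ddx5* with cytokines. *Mx1*, the GTPase that blocks influenza virus and that many laboratory strains carry in a defective form, had at most 7 fragments in any library. *Oas1g* had 1 fragment in a single library, *Oas2* at most 3 fragments and *Parp12* 3 fragments in a single library. *Oas1a* had 6, 10 and 16 fragments in shRNA-*Ddx5* with cytokines and at most 4 in any other library. *Oasl1* stayed at 8 fragments or fewer throughout. For genes with no fragment, a level of up to 3 fragments per library is allowed by counting error alone.

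The genes around the pathway were described from lists of ligands, receptors, transducers and inhibitors. The interferon genes themselves were close to silent at 6 h. None of the 10 interferon genes in the list, *Ifnb1*, *Ifng* and *Ifnl2* among them, reached the filter. *Ifnb1*, interferon β, had 1 fragment in a single shRNA-*Ddx5* medium library and none in the 6 libraries with cytokines. Both chains of the type I receptor were expressed. *Ifnar1* was lower in shRNA-*Ddx5* than in shRNA-NC cells in medium (by 0.31 on the log2 scale) and with cytokines (by 0.27), and *Ifnar2* was lower in medium (by 0.28) and at 9.01 ± 0.269 and 9.92 ± 0.347 FPKM (SD, n = 3) with cytokines.

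*Stat2*, a subunit of ISGF3, read 7.14, 7.81 and 9.14 FPKM in shRNA-NC and 9.14, 8.29 and 9.59 FPKM in shRNA-*Ddx5* in medium, where the groups overlap, and 10.8, 12.5 and 13.2 FPKM against 22.4, 23.2 and 23.1 FPKM with cytokines (0.86 ± 0.10, SE, adjusted p = 4.4e-05, limma).

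*Irf9*, the DNA-binding part of ISGF3, fell in medium, from 9.91, 11.5 and 11.5 FPKM in shRNA-NC to 10, 8.26 and 8.23 FPKM in shRNA-*Ddx5* (-0.28 ± 0.09, SE, adjusted p = 0.0185, limma). With cytokines it read 20.9, 21.7 and 21.2 FPKM against 24.0, 25.3 and 24.4 FPKM, which did not pass the test (0.20, adjusted p = 0.081, limma) although the groups were apart. The interaction was past the threshold for *Stat2* (0.71, adjusted p = 0.010, limma) and *Irf9* (0.48, adjusted p = 0.034, limma). *Jak1* did not pass the test in any of the comparisons.

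Among the interferon regulatory factors, 3 of 5 tested rose in the knockdown line with cytokines and 1 fell in medium, *Irf3* (-0.49). The shares of all genes tested were 23.5% called higher with cytokines and 21.7% called lower in medium. *Irf5*, 1 of the 3, reached 1 FPKM only in shRNA-*Ddx5* with cytokines (1.13 to 1.47 FPKM), so its rise was built in. *Irf7*, the factor that amplifies interferon production, read 0.502, 0.509 and 0.241 FPKM in shRNA-NC medium, 0.880, 0.659 and 0.488 FPKM in shRNA-*Ddx5* medium, 1.02, 2.15 and 1.57 FPKM in shRNA-NC with cytokines and 10.7, 11.9 and 13.5 FPKM in shRNA-*Ddx5* with cytokines. The last group stood apart from the other three, with a log2 difference between the lines of 2.35 ± 0.16 (SE, adjusted p = 1.5e-06, limma) and an interaction of 2.11 ± 0.23 (SE, adjusted p = 4.2e-04, limma). *Irf1* read 8.98, 8.15 and 6.97 FPKM against 10.3, 8.52 and 8.94 FPKM in medium, and 22.1, 31.5 and 27.2 FPKM against 63.3, 66.7 and 61.8 FPKM with cytokines. Its groups overlapped in medium and were apart with cytokines (1.23 ± 0.13, SE, adjusted p = 2.1e-05, limma).

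Of the 11 tested genes that sense nucleic acid or relay the signal to interferon genes, 1 rose and 2 fell in medium and 3 rose and 2 fell with cytokines. Over all genes tested, 25.3% were called higher and 21.7% lower in medium, and 23.5% higher and 22.1% lower with cytokines. *Ddx58*, which encodes RIG-I, was higher in the knockdown line in both media. It was at 7.03 ± 1.42 FPKM in shRNA-NC and 13.9 ± 1.56 FPKM in shRNA-*Ddx5* in medium, and at 14.8 ± 2.26 and 37.5 ± 1.01 FPKM with cytokines (SD, n = 3). *Tbk1* fell in medium (-0.40) and rose with cytokines (0.37), with an interaction of 0.77 (adjusted p = 0.0089, limma). Of the 8 tested negative regulators, *Socs3* and *Ptpn11* rose in medium and *Socs3* with cytokines (1.5), and *Socs1*, the main brake on JAK signalling, was at 14.3 ± 3.32 and 15.9 ± 0.624 FPKM in shRNA-NC and shRNA-*Ddx5* cells with cytokines (SD, n = 3).

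For comparison, 8 genes driven by NF-κB, the factor that IL-1β and TNF-α activate directly, all rose with cytokines in both lines. The shares of all genes called higher were 18.6% in shRNA-NC and 13.5% in shRNA-*Ddx5* cells. With cytokines 3 of the 8 were higher in shRNA-*Ddx5* than in shRNA-NC cells (*Ccl2*, *Icam1* and *Relb*), against 23.5% of all genes tested. *Tnfaip3*, a feedback inhibitor of NF-κB, was at 74.6 ± 10.3 FPKM in shRNA-NC and 89.0 ± 2.67 FPKM in shRNA-*Ddx5* with cytokines (SD, n = 3), a log2 difference of 0.26 that did not pass the test (adjusted p = 0.059, limma). In medium *Cxcl1* (2.4), *Ccl2* (1.6) and *Nfkbia* (0.25) were higher in shRNA-*Ddx5* cells, *Relb* (-0.6) was lower and 4 did not pass. Of their 8 interactions 3 were past the threshold, those of *Icam1* (0.66) and *Relb* (0.94), which were positive, and that of *Cxcl1* (-2.27). The difference of *Cxcl1* between the lines with cytokines was 0.13. Over all genes tested, 3.46% of interactions were called positive and 4.75% negative.

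**Figure D5:**
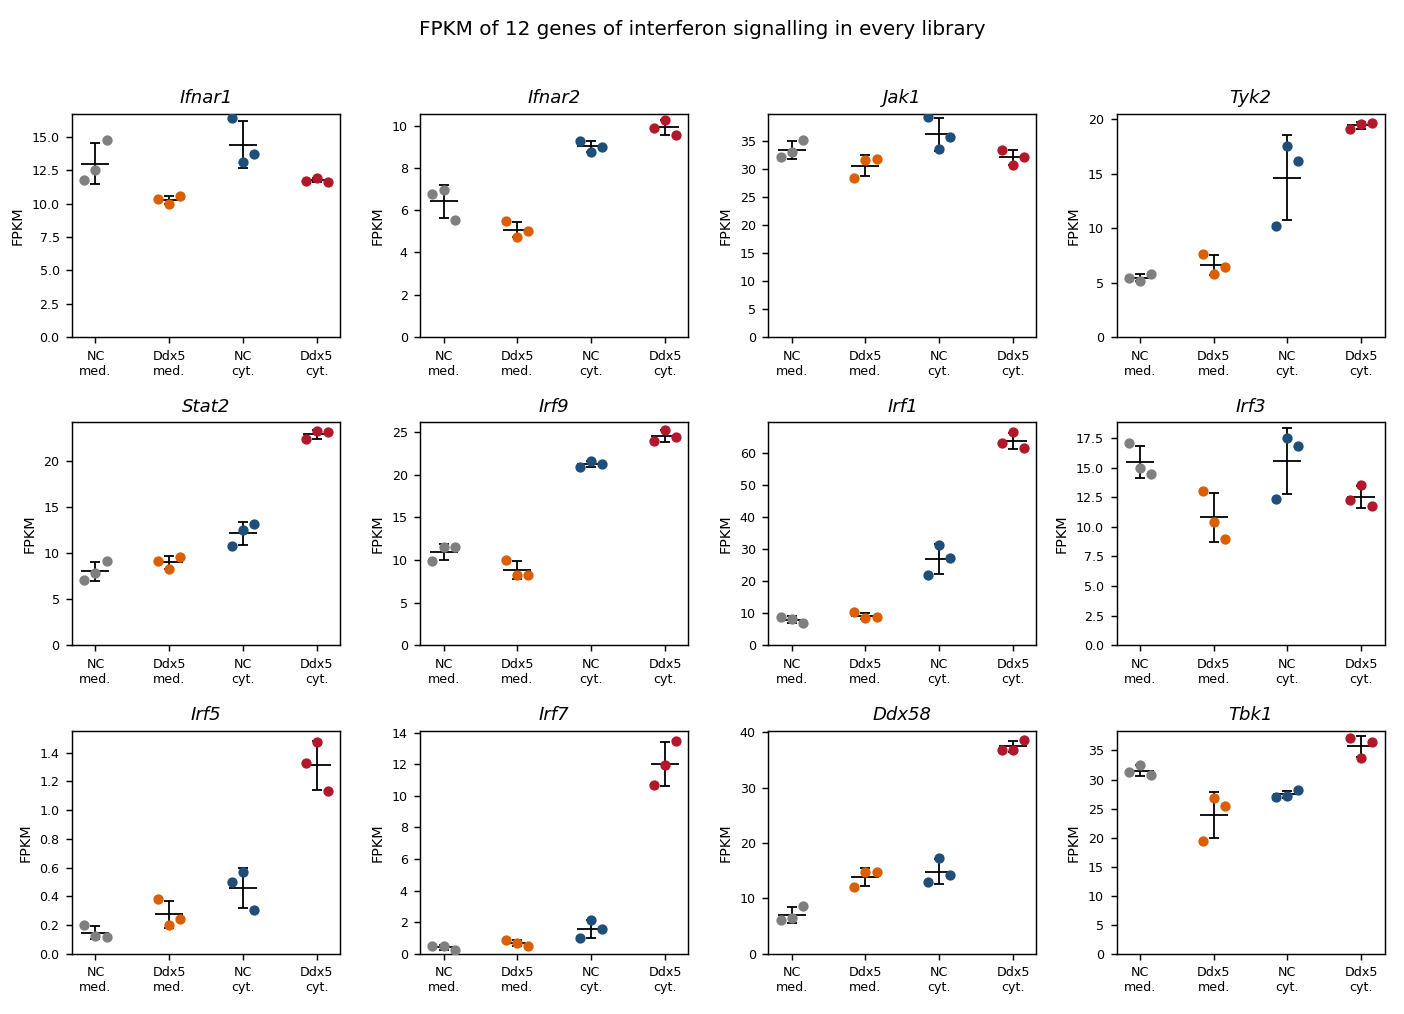
FPKM (vertical axis, linear, from 0) of 12 genes of interferon signalling in each library (points) of shRNA-NC and shRNA-Ddx5 in medium (NC med., Ddx5 med.) and with cytokines (NC cyt., Ddx5 cyt.); black bars give the mean and SD of 3 libraries. *Irf7* reaches 10.7 to 13.5 FPKM in shRNA-Ddx5 with cytokines and at most 2.15 FPKM in any other library, and *Stat2*, *Irf1* and *Ddx58* are also highest there, while *Ifnar1* and *Jak1* stay within a narrow range.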

How the data were processed

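RNA of 12 ATDC5 cultures was poly(A)-selected (1 µg) and read from both ends over 150 bases. The authors deposited FPKM per gene, and the submitters' processing notes name HISAT2 2.0.5, featureCounts 1.5.0-p3 and mm10, whereas the deposited coordinates are those of GRCm39. The strand setting of the counting is not given in the sources used here. Library groups came from the labels.

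The FPKM were whole numbers of fragments over a library denominator that follows median-of-ratios factors, so rescaling by those factors changes nothing. log2(FPKM + 1) was fitted with limma 3.58.1 in R 4.3.3 (4 group means, eBayes with trend) for genes at 1 FPKM or more in at least 3 libraries, with Benjamini-Hochberg adjustment over all genes tested. The log2 scale understates changes of genes near 1 FPKM or below, and members that reach the filter only in the group where they are high had to differ. The members and gene lists were chosen with earlier results of these data known. All members are accounted for, and the 5 largest called differences in each comparison, the 8 largest interactions and *Isg15*, *Stat2*, *Irf7*, *Irf9*, *Irf1*, *Ifnb1* and *Ddx5* are given by library, except 1 gene that is not reported here. Others were named after their values were seen.

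The fit was tested on simulated data. Alternatives were other pseudocounts, filters, normalizations, weights, a replicate block, only the 6 libraries of a contrast, and fits without any 1 library. A filter on the mean FPKM, voom with at least 10 fragments and scaling to summed fragments were chosen after seeing the data. Python 3.11.15 and matplotlib 3.10.9 made the figures.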

Additional observations from a re-analysis of the deposited data

Results flagged for a closer look

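For 19 members the difference between the lines changed from medium to cytokines by the interaction term of the limma fit (adjusted p under 0.05). Each change was positive on the log2(FPKM + 1) scale, with the limits given above. With voom weights 10 of the 19 missed the threshold and *Ifi44* turned negative. *Oas3*, *Oasl2*, *Uba7* and *Ifi44* were tested only because of shRNA-*Ddx5* libraries. The values were 1.91 for *Ifit3*, 1.88 for *Ifit1*, 1.26 for *Ifit2* and 1.56 for *Ifit3b* in the IFIT family, and 1.64 for *Oasl2* and 0.97 for *Oas3* in the OAS family. In the ISG15 pathway they were 1.6 for *Isg15*, 1.46 for *Usp18* and 0.70 for *Uba7*. Among the sensors they were 1.41 for *Dhx58* and 0.57 for *Ifih1*, and among the ADP-ribosyltransferases 0.89 for *Parp9* and 0.60 for *Parp14*. The others were 1.25 for *Samd9l*, 1.05 for *Ifi44*, 0.85 for *Helz2*, 0.82 for *Bst2*, 0.74 for *Rnf213* and 0.54 for *Lgals3bp*. No group has 4 or more libraries, so none was examined for a library far from the others.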

How the results depend on the processing

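Beyond the exceptions given beside the results, some calls of single members changed. With no filter the interactions of *Parp14*, *Helz2*, *Samd9l* and *Lgals3bp* missed the threshold. The difference of *Helz2* with cytokines missed it with no filter, with a pseudocount of 0.1, with only 6 libraries and when scaled to summed fragments (adjusted p from 0.0561 to 0.0854, limma). For the cytokines in shRNA-NC, *Daxx* missed it with quantile normalization, *Adar* with 6 libraries and *Eif2ak2* with summed fragments. With summed fragments the interaction of *Parp14* also missed it, with quantile normalization that of *Lgals3bp* missed and that of *Mx2* passed, and with 6 libraries *Isg20* missed it in medium and passed for the cytokines in shRNA-*Ddx5*. With voom *Oas3* and *Mx2* passed between the lines in medium, *Oas3* and *Dhx58* for the cytokines in shRNA-NC, and the interaction of *Adar*. Calls were also gained by *Parp9* in medium without shRNA-NC medium replicate 1 (-0.33) or shRNA-*Ddx5* medium replicate 2 (-0.35), by *Dhx58* for the cytokines in shRNA-NC without shRNA-NC medium replicate 3 (0.54), by *Isg20* for the cytokines in shRNA-*Ddx5* without shRNA-NC medium replicate 3 (0.25), and by the interaction of *Adar* without shRNA-NC cytokines replicate 3 (0.53). With at least 1 FPKM in every library only 17 members were tested, and the counts became 11 for the knockdown with cytokines, 15 and 16 for the cytokines in shRNA-NC and shRNA-*Ddx5* cells and 7 interactions. The interactions numbered 10 with a pseudocount of 0.1, 10 with voom weights and 8 with voom and at least 10 fragments. The interaction of *Ifi44* turned to -0.36, -2.67 and -2.66 in these 3 settings. The median over members for the knockdown in medium turned to -0.11 with at least 1 FPKM in every library. For the knockdown with cytokines the median was 0.62 both with no filter and with at least 1 FPKM in every library, and 0.92 in both voom fits. For the cytokines in shRNA-NC it was 1.45 with a pseudocount of 0.1, 0.65 with either filter setting, and 1.65 and 1.66 with voom. For the cytokines in shRNA-*Ddx5* it was 2.20 with a pseudocount of 0.1, 1.41 with no filter, 1.52 with at least 1 FPKM in every library, and 2.24 and 2.37 with voom. Leaving out 1 library gave 12 to 16 calls for the knockdown in medium, 24 to 26 with cytokines, 26 to 29 and 31 to 32 for the cytokines, and 14 to 18 interactions.

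Same-numbered libraries did not deviate together in every pair (residual correlations 0.448, 0.0425 and 0.313 in medium, -0.020, 0.121 and -0.0855 with cytokines). In no comparison did every library correlate best with its own number, although replicates 1 and 3 did in medium. With 3 libraries a group these correlations cannot decide whether same-numbered cultures were handled together. The main fit used no pairing. With a replicate block the counts were 15, 26, 28, 31 and 17, in the order of the text, where *Oas1b* (adjusted p = 0.058, limma), *Parp14* and *Lgals3bp* lost a call and *Parp9* gained one in medium (adjusted p = 0.048, limma). At this depth, members with 3 or fewer fragments in a library could not be told from 0 there.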
